A study of Mus musculus with 14 samples.

Results

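The genes described here encode the subunits of the transcription factor NF-kB and the IkB proteins that bind them, in mouse dendritic cells given CpG or TNF with or without a cathepsin inhibitor. The set holds 10 listed genes, of which 4 subunit genes (Rela, Rel, Relb and Nfkb2), 3 genes of cytoplasmic IkB proteins (Nfkbia, Nfkbib and Nfkbie) and 2 genes of nuclear IkB proteins (Nfkbiz and Bcl3) had a probe set assigned to 1 gene alone. The tenth, Nfkb1, is not analysed here, because the array annotation used here gave it no such probe set. For each gene the probe set with the highest mean over the 14 arrays was taken, a choice that uses no group. All 9 genes passed the filter on dim genes, so they are 9 of the 12172 genes tested and 9 of the 18193 genes that have such a probe set.

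The cells were bone marrow-derived dendritic cells of the BALB/c mouse strain, grown for 8 days from marrow progenitors with recombinant GM-CSF. Before any stimulus, all cultures were treated for 1 h with 1 of 3 agents: 0.01% DMSO, which is the solvent, 5 µM CLIK148, used as an inhibitor of cathepsin L, or 5 µM CA074Me, used as an inhibitor of cathepsin B. Of the 7 groups, 3 got no stimulus (solvent, CLIK148 and CA074Me), 2 got CpG at 25 µg/mL (after solvent or after CLIK148) and 2 got TNF-alpha at 500 U/mL (after solvent or after CA074Me). No culture had CLIK148 with TNF or CA074Me with CpG, and how long the stimulus lasted before harvest is not stated in the labels. Each group has 2 arrays, 1 from each of 2 independent experiments, and values are log2 expression on an Affymetrix mouse array. Whether an experiment pooled several animals is not stated in the labels either.

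NF-kB works as a dimer of subunits that share a DNA-binding domain named for Rel. In a resting dendritic cell the dimers are held in the cytoplasm by IkB proteins. Receptors such as TLR9, which senses CpG DNA, and the TNF receptors switch on a kinase that marks these IkB proteins for destruction, and the freed dimers enter the nucleus. Several of the genes that the dimers then transcribe encode IkB proteins and NF-kB subunits themselves, so the pathway changes the supply of its own components. The nuclear IkB proteins do not hold dimers back in the cytoplasm but bind them on DNA and alter which target genes are read.

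The promoters of these genes are shown because NF-kB is known to bind kB sites in some of them. Sequences come from the RefSeq promoter table on build GRCm38.p6, which holds a window of 250 bases before and 50 bases after the start of transcription for 7 of the 10 genes. Nfkb1, Relb and Nfkbiz had no window. The stretch of 150 bases just before the start is printed for 6 genes, 5′ to 3′ on the gene's own strand. Capitals mark letters that match the kB consensus on either strand, and matches that overlap are joined.
Nfkb2, first of 3 starts, chr19:46304587-46304736, plus strand: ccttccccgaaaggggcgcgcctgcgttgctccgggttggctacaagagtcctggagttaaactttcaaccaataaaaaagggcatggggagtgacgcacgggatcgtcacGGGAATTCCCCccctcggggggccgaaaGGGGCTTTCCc
Rel, chr11:23770970-23771119, minus strand: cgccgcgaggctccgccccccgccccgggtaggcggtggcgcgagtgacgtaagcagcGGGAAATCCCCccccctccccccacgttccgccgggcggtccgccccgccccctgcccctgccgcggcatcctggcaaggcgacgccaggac
Nfkbia, chr12:55492648-55492797, minus strand: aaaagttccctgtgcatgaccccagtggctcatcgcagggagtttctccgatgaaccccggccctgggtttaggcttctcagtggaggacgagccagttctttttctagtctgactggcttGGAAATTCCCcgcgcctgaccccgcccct
Nfkbie, chr17:45555550-45555699, plus strand: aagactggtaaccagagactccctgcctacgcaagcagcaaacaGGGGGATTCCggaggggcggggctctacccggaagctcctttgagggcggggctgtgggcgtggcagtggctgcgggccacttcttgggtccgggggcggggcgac
Nfkbib, chr7:28766645-28766794, minus strand: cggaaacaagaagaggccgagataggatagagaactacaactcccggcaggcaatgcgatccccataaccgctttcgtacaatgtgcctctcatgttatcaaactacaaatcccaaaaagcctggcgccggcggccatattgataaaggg
Rela, chr19:5637391-5637540, plus strand: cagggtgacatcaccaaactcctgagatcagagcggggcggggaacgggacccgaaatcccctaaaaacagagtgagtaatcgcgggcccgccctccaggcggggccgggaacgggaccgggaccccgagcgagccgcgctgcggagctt

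Of the 7 genes with a window, 5 held a match to the kB consensus somewhere in their 300 bases: Nfkb2, Rel, Nfkbia, Nfkbie and Bcl3. Over all 32851 windows of the table, 4.51% held one. That share is per window and the count of 5 is per gene, where Nfkb2 had 3 of the 9 windows of these genes. At start 1 of 3 the Nfkb2 matches lie between positions -39 and -29 and between -11 and -2. At start 2 they lie between -236 and -227 and between 11 and 20, and at start 3 between -225 and -216. The windows of starts 2 and 3 overlap. The match from 11 to 20 and that from -225 to -216 are the same bases, listed from different starts. From the single start of each other gene, the match of Rel lies between -92 and -82, that of Nfkbia between -29 and -20 and that of Nfkbie between -106 and -97. Bcl3 has its match after the start, from position 3 to 12. The printed stretches of Nfkbib and Rela hold none. Those of Bcl3 and of Nfkb2 at starts 2 and 3, which are not printed, hold none either. Among all stretches of this length 2.38% held one, a share that the printed selection alone cannot be set against. A match is a likeness of letters, binding was not measured here, and no match says only that these letters are not in this window.

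All 9 genes were higher in the stimulated groups than in the unstimulated ones: the lowest mean of the 4 stimulated groups exceeded the highest mean of the 3 unstimulated groups for each of them, which held for 15.7% of all tested genes. For 6 of the 9 (Nfkb2, Rel, Relb, Nfkbib, Nfkbiz and Bcl3), even the lowest of the 8 stimulated arrays exceeded the highest of the 6 unstimulated arrays, against 3.46% of all tested genes. In Rela, Nfkbia and Nfkbie the arrays overlapped. The span over the 14 arrays was 3.32 log2 for Nfkbiz, 1.85 for Rel and 0.66 for Rela, the narrowest of the 9. CpG after solvent gave the highest of the 7 group means for 6 genes and TNF after CA074Me for 3 (Rela, Relb and Nfkbie), where 18.5% and 15.9% of all tested genes had theirs. The group treated with CA074Me alone was the lowest for 8 genes, all but Nfkbib, and 17.3% of all tested genes had their lowest mean there.

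**Figure D1:**
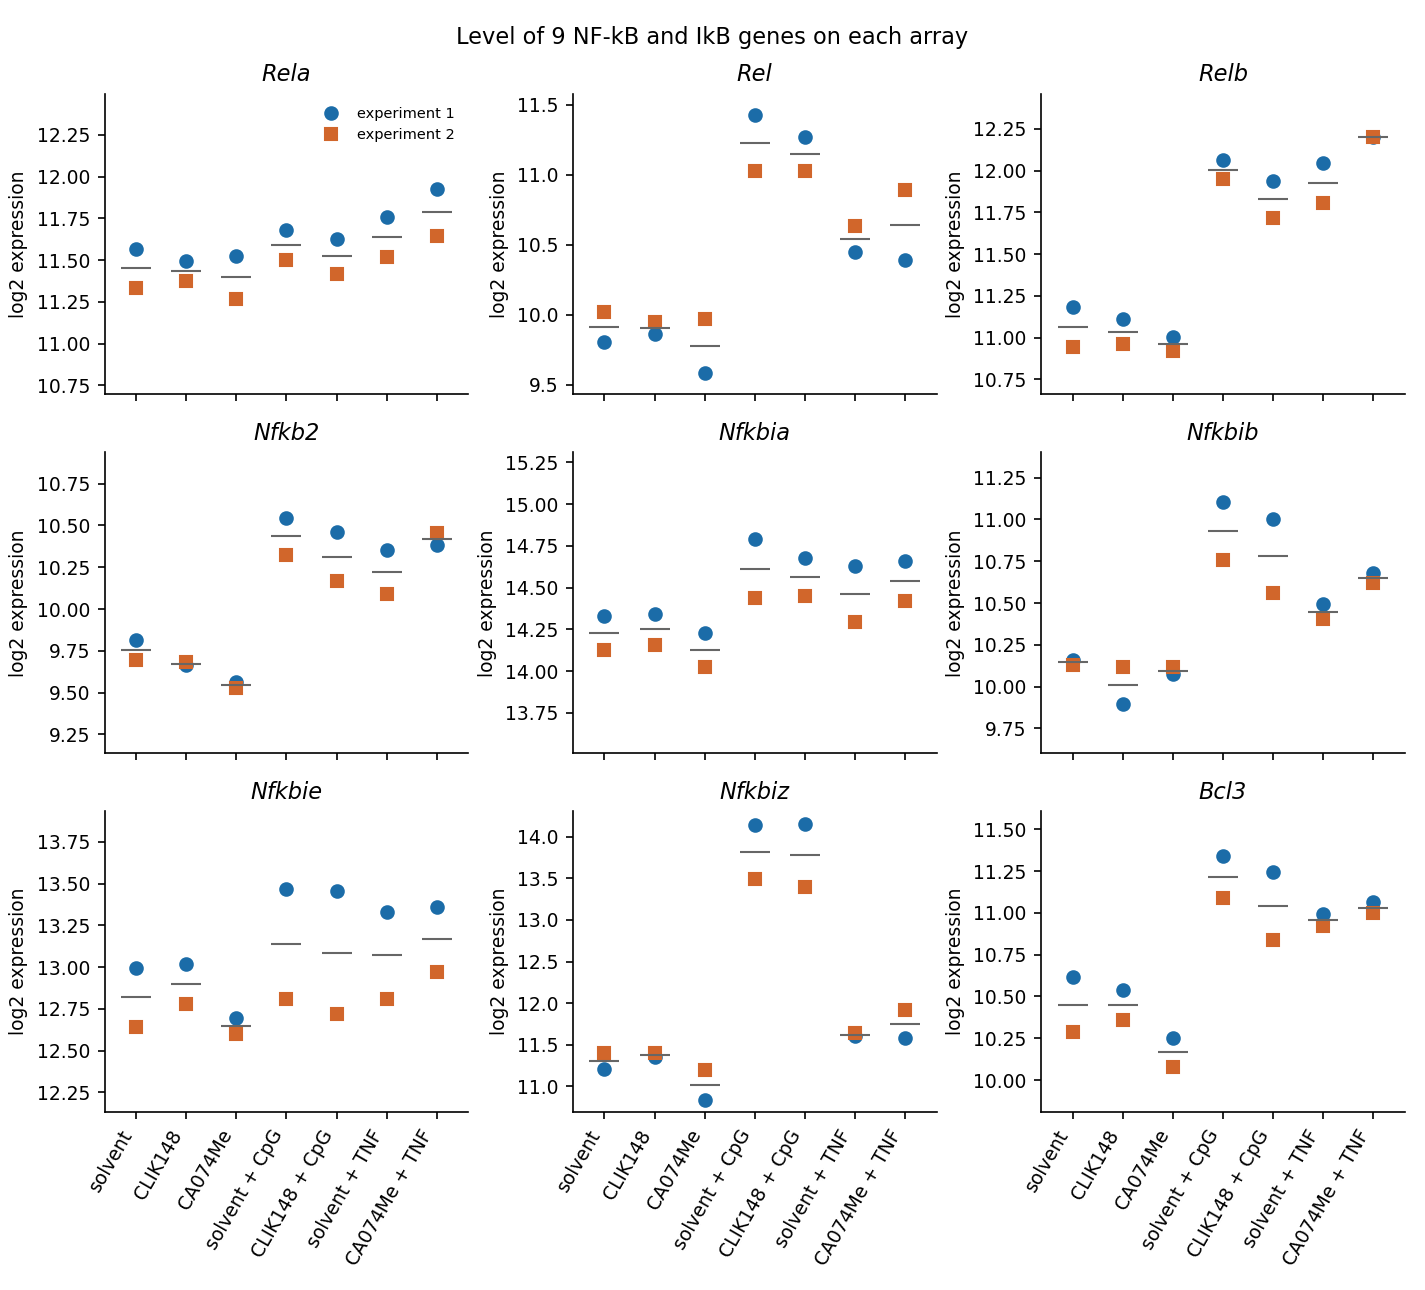
Log2 expression (vertical axes, a scale for each gene) of the 9 genes in the 7 groups (horizontal axis). Circles are experiment 1, squares experiment 2 and bars the mean of the 2 arrays; Nfkbiz stands near 13.4 to 14.2 in both groups given CpG and below 12 in all others.

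Changes below are differences of log2 means in a limma fit to all 14 arrays with the experiment as a block, with standard errors (SE). Unless another setting is named, adjusted p-values are limma's with Benjamini-Hochberg adjustment over the 12172 genes of a comparison. Those of other probe sets of a gene come from a separate limma fit over 21391 probe sets. In that fit the chosen Nfkbie probe set did not pass with TNF after CA074Me (limma adjusted p = 0.0524). A gene is said to have risen or fallen where its adjusted p lies under 0.05. CpG and TNF are each compared with the same 2 solvent arrays, so these comparisons are not independent of each other. The arrays measure RNA of a whole culture, in which a change in the share of a cell type and a change in RNA per cell cannot be told apart.

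CpG after solvent raised 7 of the 9 genes against solvent alone: 3 of the 4 subunits (Rel, Relb and Nfkb2), both nuclear IkB genes (Nfkbiz and Bcl3) and 2 of the 3 cytoplasmic IkB genes (Nfkbib and Nfkbia). Among all tested genes 6.19% rose and 13.7% fell. The median change of the 9 genes was 0.76 log2, and that of all tested genes was -0.05. Without the block 5 of the 9 rose, against 1.07% of all tested genes. Without the solvent array of experiment 1 there were 4, since Rel (adjusted p = 0.0511), Nfkbia (0.0732) and Nfkbib (0.0841) in limma then missed the threshold. Without the CpG array of experiment 1 Nfkbia (0.0516) and Nfkbib (0.0706) missed it.

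Nfkbiz encodes IkB-zeta, a nuclear IkB protein that is needed for a set of late inflammatory genes. Its 2 solvent arrays read 11.20 and 11.39, and with CpG it read 14.14 in experiment 1 and 13.49 in experiment 2. The groups lie far apart, and only 9 of the 12172 tested genes had a larger rise. The change was 2.52 ± 0.27 log2 (SE, n = 2 against 2), or 5.72-fold, with a limma adjusted p of 0.0015. It measured 2.93 in experiment 1 and 2.10 in experiment 2. The gene has 2 other probe sets, on which CpG changed the signal by 3.17 log2 (limma adjusted p = 0.0031) and by 0.67 log2 (0.102, which missed the threshold).

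Rel encodes c-Rel, the subunit most tied to lymphoid and myeloid cells and to the transcription of interleukin-12 and interleukin-23 genes. It read 9.81 and 10.02 in solvent and 11.43 and 11.02 with CpG, with no overlap. The change was 1.31 ± 0.20 log2, or 2.48-fold, with a limma adjusted p of 0.0043. Experiment 1 gave 1.62 and experiment 2 gave 1.00, so the size of this rise varied more between experiments than that of Relb.

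Relb encodes the partner of p52 in the non-canonical branch and is known for its part in dendritic cell maturation. Its level was 11.19 and 10.95 in solvent against 12.06 and 11.95 with CpG. Both CpG arrays stood well above both solvent arrays. The rise of 0.94 ± 0.07 log2 (1.92-fold, limma adjusted p = 0.0006) had the lowest p of the 9 genes and was 0.88 in the first and 1.00 in the second experiment.

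Nfkb2 encodes p100, which is cut to the subunit p52 and, uncut, acts as an IkB protein. It went from 9.81 and 9.69 to 10.55 and 10.32, again with no overlap, as held on the higher side for 7 of the 9 genes and 16.6% of all tested genes. That is a rise of 0.68 ± 0.10 log2 (1.60-fold, limma adjusted p = 0.0037). Its second probe set changed by 0.33 log2 with an adjusted p of 0.138 and so did not pass.

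Rela encodes p65, the subunit that carries most of the activity of the classical dimer. Its arrays read 11.57 and 11.33 in solvent and 11.68 and 11.50 with CpG, so the groups overlapped. The change of 0.14 ± 0.06 log2 had a limma adjusted p of 0.113 and a 95% interval from 0.0095 to 0.27 (on cyclic loess values the adjusted p was 0.042). Of the 4 subunits measured it is the 1 that did not pass with CpG.

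Bcl3 encodes a nuclear IkB protein that binds dimers of p50 or p52. It read 10.62 and 10.29 in solvent and 11.34 and 11.09 with CpG. The rise of 0.76 ± 0.09 log2 had a limma adjusted p of 0.0019 (0.0512 without the block). It was about equal in both experiments, at 0.72 and 0.80.

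Among the cytoplasmic inhibitors the largest change on the chosen probe sets was that of Nfkbib, which encodes IkB-beta. It read 10.16 and 10.13 in solvent and 11.11 and 10.76 with CpG, a rise of 0.79 ± 0.14 log2 with a limma adjusted p of 0.0086. Its second probe set changed by 0.35 log2 (0.0160). Nfkbia encodes IkB-alpha, the best known feedback inhibitor of the pathway. Its signal was already 14.33 and 14.13 in solvent, close to the top of the array's range, where the highest values lay between 15.2 and 15.6. With CpG it was 14.79 and 14.44, a rise of 0.38 ± 0.06 log2 (limma adjusted p = 0.0065, and 0.274 without the block). Its other 4 probe sets changed by 0.29 to 0.66 log2, and the one at 0.29 did not pass (limma adjusted p = 0.236). Nfkbie, which encodes IkB-epsilon, read 13.00 and 12.64 in solvent and 13.47 and 12.81 with CpG, so the groups overlapped. The change of 0.32 ± 0.14 log2 did not pass (limma adjusted p = 0.134). The probe sets used for Nfkbia, Nfkbib and Nfkbie are of a type that the array maker marks as able to match more than 1 transcript or gene.

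**Figure D2:**
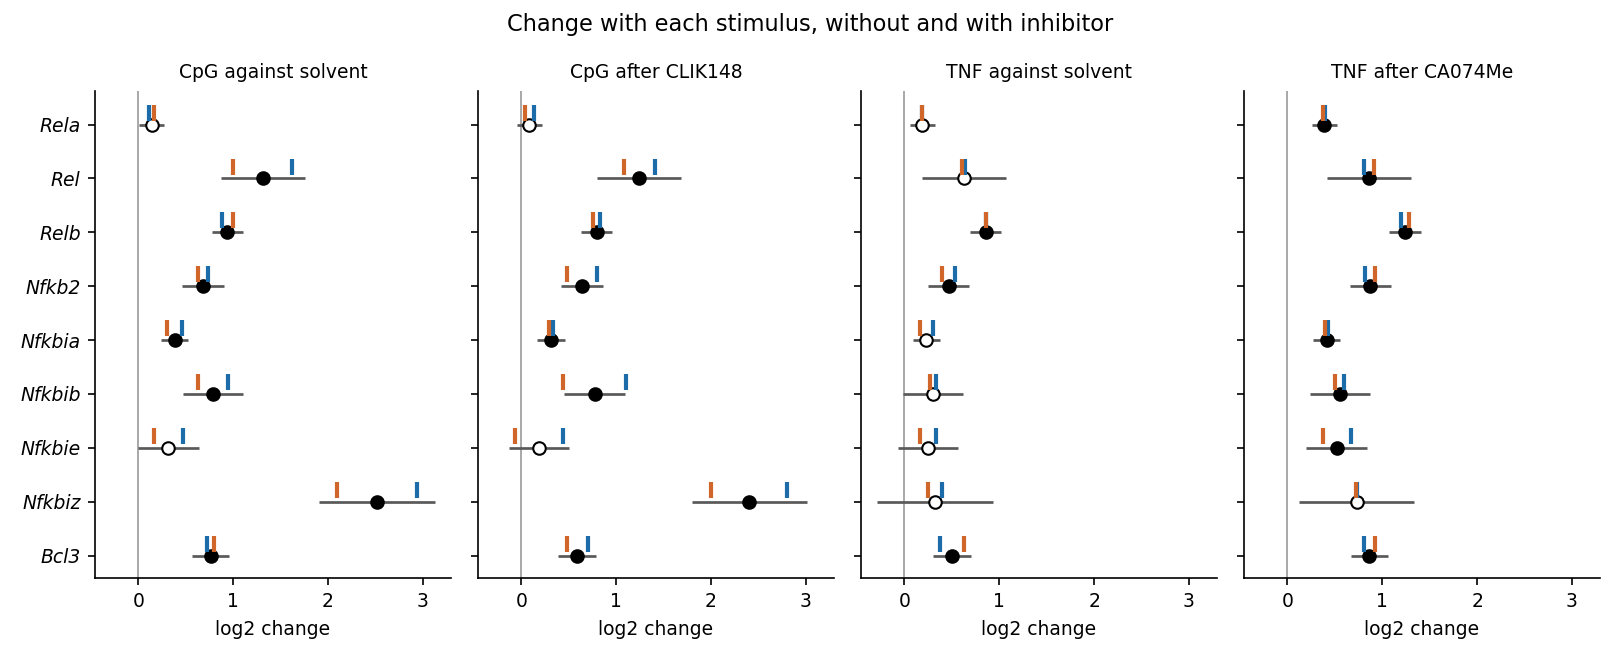
Log2 change (horizontal axis) of the 9 genes with each stimulus, after solvent and after an inhibitor. Points are the change and lines its 95% interval in the limma fit, filled points have an adjusted p under 0.05, and short ticks are the change within experiment 1 (blue) and experiment 2 (orange); Nfkbiz stands at 2.52 and 2.40 in the panels with CpG and at 0.32 and 0.73 in those with TNF.

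TNF after solvent raised 3 of the 9 genes against solvent alone, namely Relb, Bcl3 and Nfkb2. Among all tested genes 1.14% rose and 1.97% fell, so fewer genes of any kind passed than with CpG. The median change of the 9 genes was 0.32 log2, and that of all tested genes was -0.05. All 9 changes were above 0 in both experiments, as were those of 24.8% of all tested genes. Without the block Relb alone passed, against 0.0822% of all tested genes that rose. With any 1 of the 4 arrays left out the count was 0 or 1, and Relb missed the threshold in 3 of these 4 fits, with limma adjusted p-values of 0.0503 to 0.0616. Array weights raised the count to 6 by adding Rel (0.0150), Nfkbia (0.0196) and Rela (0.0374), and cyclic loess added Rela (0.0368).

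With TNF 6 of the 9 genes were higher without overlap of the arrays, against 14.3% of all tested genes. Relb read 12.04 and 11.80 with TNF against 11.19 and 10.95 in solvent, with a clear gap between the groups. The rise was 0.86 ± 0.07 log2, or 1.81-fold (limma adjusted p = 0.0029, and 0.0493 without the block), and it measured 0.86 in each experiment. Bcl3 read 11.00 and 10.92 with TNF, above both solvent values, a rise of 0.51 ± 0.09 log2 (limma adjusted p = 0.0218, and 0.444 without the block). Nfkb2 read 10.35 and 10.09 with TNF, also above both, a rise of 0.47 ± 0.10 log2 (limma adjusted p = 0.0400, and 0.338 without the block). Scaling on reference genes took its adjusted p to 0.0735. The second Nfkb2 probe set changed by 0.30 log2 with TNF and did not pass (0.301).

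Rel was higher with TNF on both arrays (10.45 and 10.63), but its change of 0.63 ± 0.20 log2 did not pass (limma adjusted p = 0.121). Nfkbiz read 11.60 and 11.64 with TNF, and its change of 0.32 ± 0.27 log2 had an adjusted p of 0.520. The other 4 genes changed by 0.19 log2 (Rela) to 0.30 log2 (Nfkbib), with adjusted p-values from 0.0874 to 0.346.

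**Figure D3:**
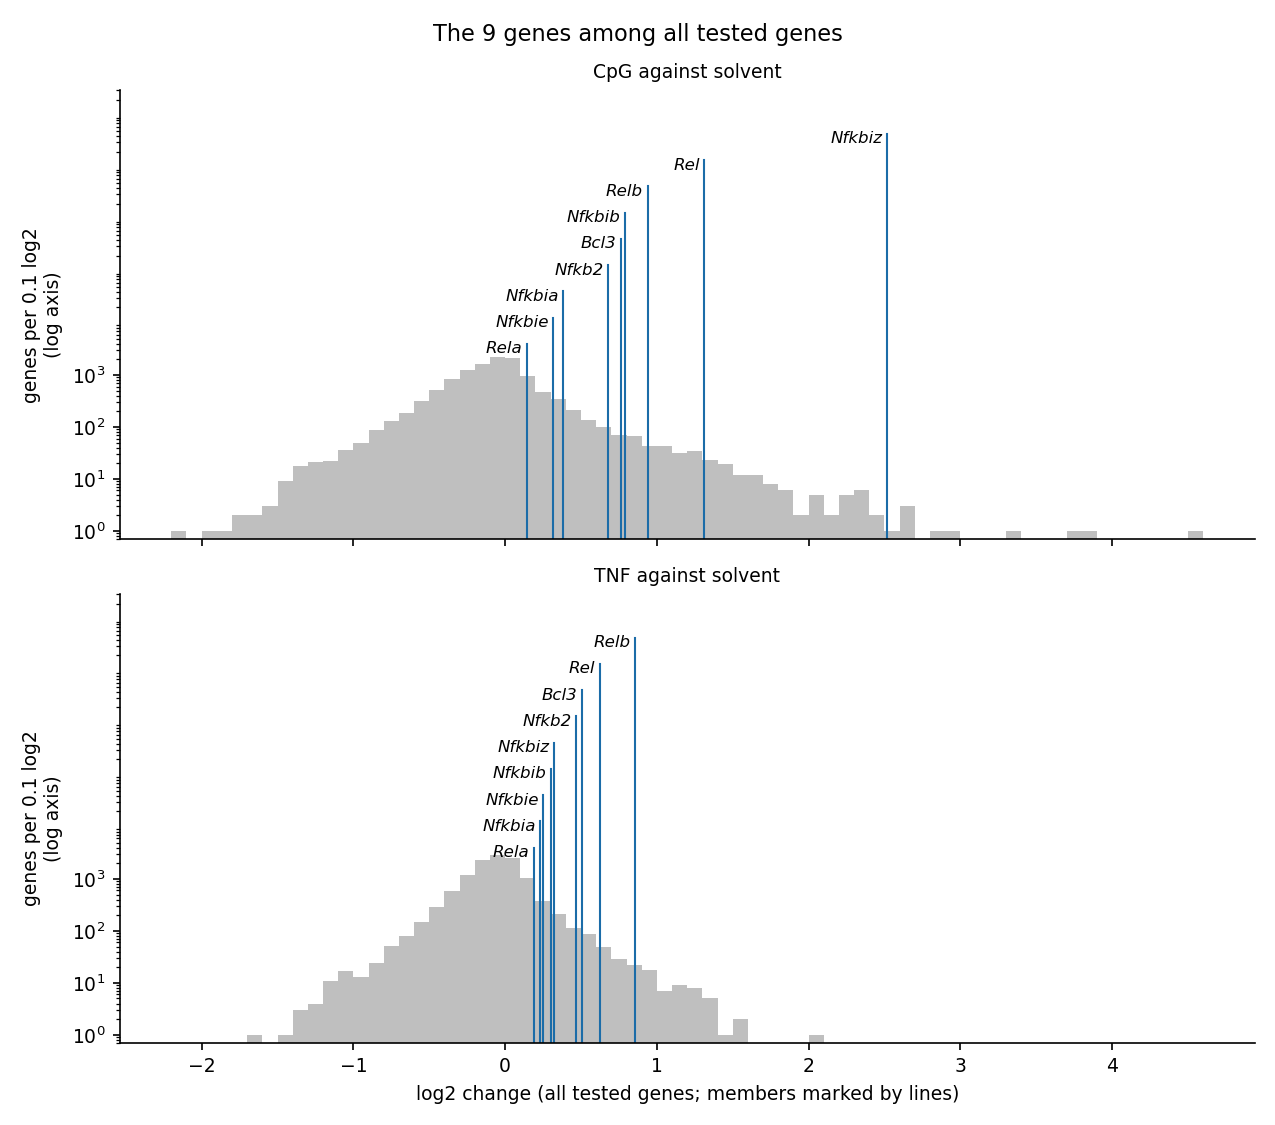
Number of tested genes (vertical axes, log scale) by log2 change (horizontal axis) with CpG and with TNF against solvent, in grey, with the 9 genes marked by blue lines whose heights carry no value. Nfkbiz lies far out in the right tail with CpG, at 2.52, and nearer the centre with TNF, at 0.32, where it did not pass the test.

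Set against each other, CpG and TNF differed in 1 of the 9 genes, Nfkbiz, which was 2.19 ± 0.27 log2, or 4.57-fold, higher with CpG (limma adjusted p = 0.0180). Among all tested genes 0.435% differed. The difference was 2.54 in experiment 1 and 1.85 in experiment 2, and its adjusted p was 0.0630 without the block, 0.0648 with array weights and 0.05002, just over the threshold, with the mean of its probe sets. With 1 array left out it passed only without the CpG array of experiment 2, where Rel (0.98 log2) and Nfkbib (0.63 log2) passed as well. On its other probe sets Nfkbiz was 3.00 log2 higher with CpG (0.0286) and 0.62 log2 higher (0.321, which missed the threshold). On all 14 arrays Rel was 0.69 ± 0.20 log2 higher with CpG than with TNF, Nfkbib 0.49 ± 0.14 and Bcl3 0.26 ± 0.09. None of these passed (limma adjusted p = 0.170, 0.174 and 0.225). With Nfkbiz they are the 4 of the 9 genes that were higher with CpG without overlap of the arrays, against 13.3% of all tested genes. The intervals for Relb and Rela were narrow around 0: Relb differed by 0.08 log2 (95% interval -0.08 to 0.25) and Rela by -0.05 log2 (-0.18 to 0.08).

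CpG was also given after CLIK148, and that group is compared with cells given CLIK148 alone, which shares no array with the comparison in solvent. All 7 genes that CpG raised after solvent rose here too, against 4.03% of all tested genes, and Rela and Nfkbie again did not pass. Nfkbiz went from 11.35 and 11.40 to 14.16 and 13.40, a rise of 2.40 ± 0.27 log2 (limma adjusted p = 0.0023). Rel went from 9.86 and 9.95 to 11.27 and 11.03, a rise of 1.24 ± 0.20 log2 (0.0069). For both genes the stimulated arrays were clear of the unstimulated ones, as for 7 of the 9 genes and 16.1% of all tested genes.

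Relb rose by 0.79 ± 0.07 log2 (limma adjusted p = 0.0018), Nfkbib by 0.77 ± 0.14 (0.0111), Nfkb2 by 0.64 ± 0.10 (0.0057), Bcl3 by 0.59 ± 0.09 (0.0055) and Nfkbia by 0.31 ± 0.06 (0.0155). Other probe sets did not all pass: the second of Nfkb2 changed by 0.15 log2 (0.484), 1 of the other 2 of Nfkbiz by 0.51 log2 (0.193), and 2 of the other 4 of Nfkbia by 0.28 log2 (0.0759) and 0.37 log2 (0.139). Without the block Rel, Relb and Nfkbiz passed, against 0.411% of all tested genes that rose. Without either array of experiment 1 the count was 2, and without an array of experiment 2 it was 5 or 6.

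TNF after CA074Me, set against CA074Me alone, raised 8 of the 9 genes, against 4.97% of all tested genes. Nfkbiz was the exception. Relb went from 11.00 and 10.92 to 12.20 and 12.20, and with 1.24 ± 0.07 log2, or 2.36-fold, it had the largest change (limma adjusted p = 0.0003). Nfkb2 went from 9.57 and 9.53 to 10.39 and 10.46, a rise of 0.87 ± 0.10 log2 (0.0014), and Bcl3 went from 10.25 and 10.08 to 11.06 and 11.00, a rise of 0.86 ± 0.09 (0.0010). These 3 genes also rose with TNF after solvent. On its second probe set Nfkb2 changed by 0.44 log2 and did not pass (0.0888).

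Rel rose by 0.86 ± 0.20 log2 (limma adjusted p = 0.0256), from 9.58 and 9.97 to 10.39 and 10.89. Rela, which passed in no other comparison of this fit, went from 11.52 and 11.27 to 11.92 and 11.65, a rise of 0.39 ± 0.06 log2 (0.0049, and 0.319 without the block). Among the cytoplasmic inhibitors, Nfkbib rose by 0.55 ± 0.14 log2 (0.0395), Nfkbie by 0.52 ± 0.14 (0.0474) and Nfkbia by 0.41 ± 0.06 (0.0057). Of the other 4 Nfkbia probe sets, 2 passed, 1 changed by 0.32 log2 without passing (0.0649) and 1 had the opposite sign, at -0.05 log2 (0.874). Nfkbiz changed by 0.73 ± 0.27 log2 and did not pass (0.118, but 0.0181 with array weights). Its other 2 probe sets changed by 0.30 log2 (0.516) and 0.36 log2 (0.630). All 9 genes, Nfkbiz among them, were higher without overlap of the arrays, against 19.3% of all tested genes. The call for Nfkbie was lost without the filter (0.0549), with cyclic loess (0.0585) and with scaling on reference genes (0.0822), and the last also ended that for Nfkbib (0.0674). On its other probe set Nfkbie changed by 0.62 log2 and passed (limma adjusted p = 0.0223). Without the block Relb, Nfkb2 and Bcl3 passed, against 0.887% of all tested genes that rose. With 1 array left out the count lay between 4 and 7, and it was 4 without the CA074Me array of experiment 1 or the CA074Me plus TNF array of experiment 2.

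Neither inhibitor alone moved any of the 9 genes past the threshold in limma. With CLIK148 alone, changes lay between -0.14 log2 (Nfkbib) and 0.08 log2 (Nfkbie), and 0 of the 9 had an unadjusted p under 0.05, as did 0.37% of all tested genes. No gene of the 12172 passed after adjustment. The half-width of the 95% interval was 0.13 log2 for Rela, the most precise of the 9, and 0.61 log2 for Nfkbiz. Changes of that size would go unseen in this fit. Its residual spread is shared over all arrays, the stimulated ones included. Within the experiments Nfkbiz changed by 0.149 and 0.006 log2 with CLIK148 alone, against 2.93 and 2.10 with CpG. A cut-off of 0.05 would take a share of about 0.05 if no gene changed, and 0.37% is far less. Whether the shared spread is too wide for unstimulated arrays was not tested. These p-values and half-widths may therefore not give the precision of the inhibitor comparisons.

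With CA074Me alone, all 9 genes lay below solvent in both experiments, as did 37.8% of all tested genes. The changes ran from -0.05 log2 (Nfkbib) to -0.29 log2 (Bcl3), and none passed adjustment. Bcl3 read 10.25 and 10.08, below both solvent arrays, and was the only 1 of the 9 with an unadjusted p under 0.05 (-0.29 ± 0.09 log2, limma unadjusted p = 0.0099, adjusted p = 1). Among all tested genes 2.75% had such a p, and 0 passed after adjustment. Nfkbiz was 10.84 and 11.19, also below both solvent arrays, at -0.28 ± 0.27 log2. Arrays lay lower without overlap in 4 of the 9 genes, against 13.1% of all tested genes. The median of the 9 genes was -0.14 log2 and that of all tested genes -0.02.

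The inhibitors were given alone at the same dose and for the same time, so they can be compared directly as 1 pair. None of the 9 genes differed after adjustment (limma adjusted p = 1 for all 9), and 0 of all tested genes did. The difference of CLIK148 minus CA074Me ran from -0.09 log2 (Nfkbib, 95% interval -0.41 to 0.23) to 0.36 log2 (Nfkbiz, -0.24 to 0.97). Bcl3 had the lowest unadjusted p, 0.01005, with 0.29 log2 (0.09 to 0.48), and 2.36% of all tested genes had an unadjusted p under 0.05. These intervals leave room for differences of that size, so the values do not show that the inhibitors act alike.

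Under CpG, CLIK148 left the 9 genes slightly below CpG after solvent. The differences lay between -0.18 log2 (Relb) and -0.04 log2 (Nfkbiz), none passed (limma adjusted p = 1), and 65.2% of all tested genes also lay below 0. Relb read 11.94 and 11.72 against 12.06 and 11.95, and was the only 1 of the 9 with an unadjusted p under 0.05 (0.0386), as had 1.86% of all tested genes. For Nfkbiz, by contrast, 14.16 and 13.40 stood beside 14.14 and 13.49, and the 95% interval of its difference ran from -0.64 to 0.57. Cyclic loess or scaling on reference genes turned the sign of this Nfkbiz difference.

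Under TNF, CA074Me went the other way from CA074Me alone: all 9 genes had a higher mean than with TNF after solvent, as had 52.1% of all tested genes, and 7 were higher in both experiments, as were 29.7% of all tested genes. The pattern of below solvent alone and above it under TNF, in both experiments, held for 7 of the 9 and for 10.9% of all tested genes. Relb read 12.20 and 12.20 against 12.04 and 11.80, a difference of 0.28 ± 0.07 log2 (limma unadjusted p = 0.0043, adjusted p = 1.00). Rela read 11.92 and 11.65 against 11.76 and 11.52, or 0.15 ± 0.06 log2 (unadjusted p = 0.0325). None of the 9 passed after adjustment, 1 gene of the 12172 (0.00822%) did, and 3.04% of all tested genes had an unadjusted p under 0.05.

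**Figure D4:**
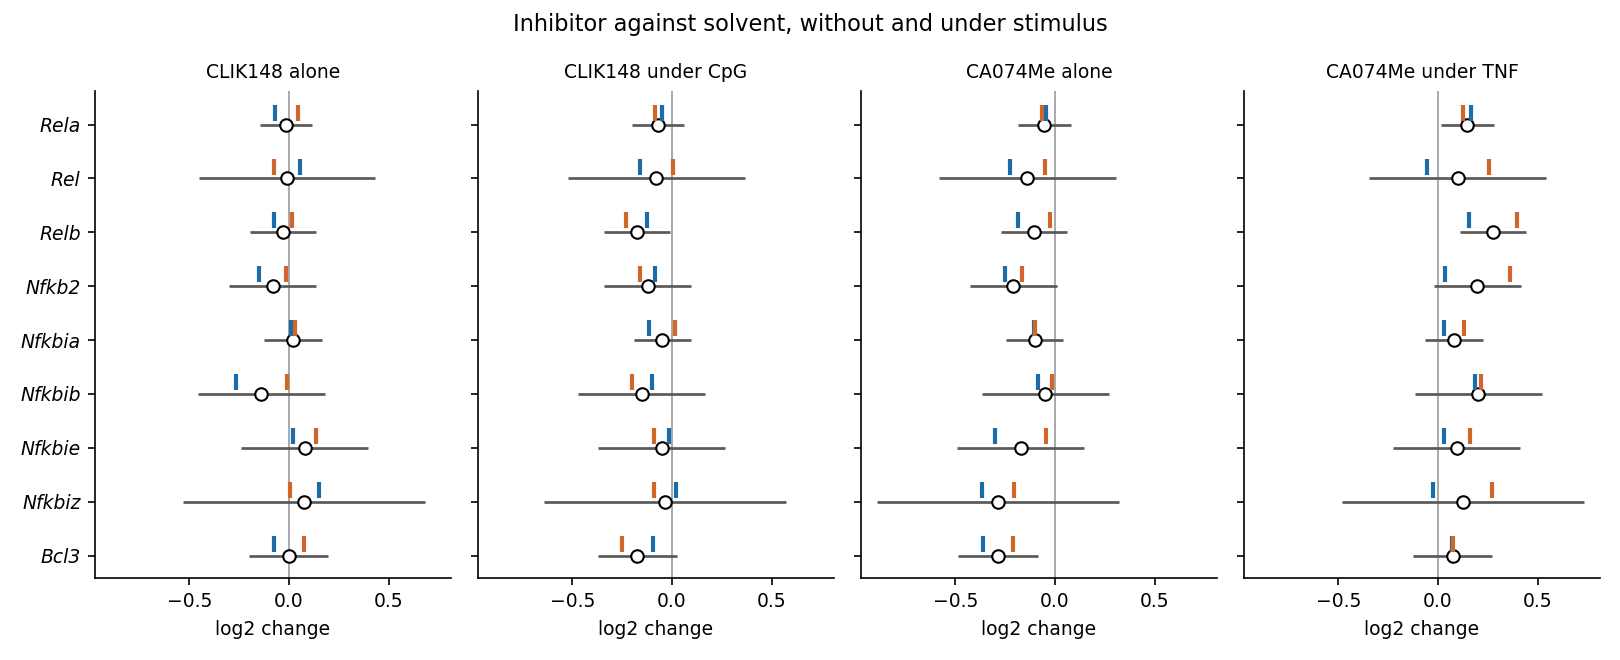
Log2 change (horizontal axis) of the 9 genes with an inhibitor against solvent, without stimulus and under stimulus. Points and lines are the change and its 95% interval in the limma fit, ticks are the change within experiment 1 (blue) and experiment 2 (orange), and no point is filled because none passed; with CA074Me all 9 points lie left of 0 without stimulus and right of 0 under TNF.

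The difference between these 2 effects was tested as an interaction. The TNF response after CA074Me minus that after solvent was above 0 for all 9 genes in both experiments, as for 36.8% of all tested genes. It ran from 0.18 log2 (Nfkbia) to 0.41 log2 (Nfkbiz), with a median of 0.27 against 0.03 for all tested genes. No gene passed after adjustment, in limma with or without the block. The limma unadjusted p was under 0.05 for Relb (0.38 ± 0.10 log2, limma unadjusted p = 0.0049, adjusted p = 1.00), and likewise for Nfkb2 (0.41 ± 0.14 log2, 0.0154), Bcl3 (0.36 ± 0.12 log2, 0.0179) and Rela (0.20 ± 0.08 log2, 0.0375). These are 4 of the 9 genes, against 2.49% of all tested genes. Without the block 1 of the 9 had such a p, against 0.657%.

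Relb shows how the values lie. Its TNF response after solvent was 0.86 log2 in each experiment, and after CA074Me it was 1.20 and 1.28. For Nfkb2 the responses were 0.54 and 0.40 after solvent and 0.82 and 0.93 after CA074Me. Bcl3 went from 0.38 and 0.63 to 0.81 and 0.92. The interaction uses the arrays of CA074Me alone, where all 9 genes were low, so part of each value is the lower start and part the higher end. For Bcl3 most of it is the start (-0.29 alone, 0.07 under TNF) and for Relb most is the end (-0.11 alone, 0.28 under TNF).

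The matching interaction of CLIK148 with CpG was below 0 for all 9 means, from -0.01 log2 (Nfkbib) to -0.17 log2 (Bcl3), as for 57.1% of all tested genes. It was below 0 in both experiments for 5 of the 9, against 25% of all tested genes. Nfkbie was above solvent with CLIK148 alone and below it under CpG in both experiments, as were 5.37% of all tested genes. No gene of the 12172 passed, and 0 of the 9 had an unadjusted p under 0.05, against 0.501% of all tested genes. Whether the inhibitors differ in their effect on a stimulus was not tested, since they were combined with different stimuli.

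**Figure D5:**
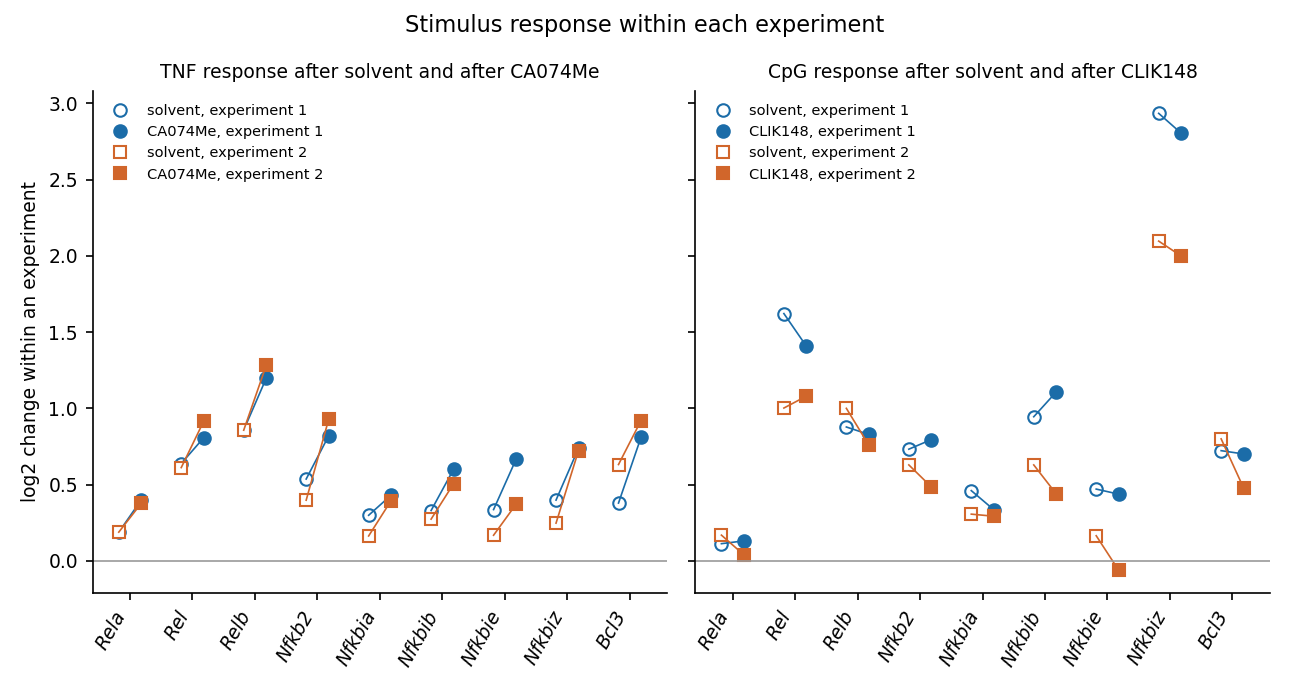
Log2 change with stimulus within each experiment (vertical axis) for the 9 genes, TNF on the left and CpG on the right. Open marks are the response after solvent and filled marks after the inhibitor, circles experiment 1 and squares experiment 2; on the left every line rises, as for Relb from 0.86 to 1.20 and 1.28, and on the right lines go both ways.

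The genes followed each other across the arrays to different degrees. After each experiment was centred on its mean, the 36 pairs had Pearson correlations over the 14 arrays from 0.21 (Rela with Nfkbiz) to 0.97 (Nfkb2 with Nfkbia), with a median of 0.86. Nfkb2, Relb, Nfkbia and Bcl3 lay at 0.93 to 0.97 with one another. These points share the 7 treatments and the array scaling, so the values are a description.

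The tested genes most like each member, by the same correlation, included some of known roles. Icam1 (an adhesion molecule) and Cxcl16 (a chemokine) were most like Nfkb2, both at 0.99, and Cxcl16 and Birc2 (a ubiquitin ligase of the TNF receptor complex) were most like Bcl3, both at 0.98. Rel was closest to Mab21l3 and Dusp2 (a nuclear phosphatase), both at 0.99. Relb was closest to Gucd1 and Psmd8 (a proteasome subunit), both at 0.99. Nfkbiz was closest to Tpbg (0.99) and Ubtd2 (0.98), and Nfkbib to Tbl1x (0.99) and Adgrg6 (0.98). Rela (Pdlim4 and Ankrd27), Nfkbia (Idi1 and Slc2a6) and Nfkbie (Igsf6 and Cmc2) had neighbours at 0.97 to 0.99.

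The experiments differed in the level of these genes. Rela, Nfkbia, Nfkbie and Bcl3 were lower in experiment 2 in all 7 groups, as were 9.97% of all tested genes, by a mean of 0.43 log2 for Nfkbie. The other 5 were lower in experiment 2 in 2 groups (Rel and Nfkbiz) to 6 groups (Relb), and Rel was higher there on average, by 0.10 log2. The Nfkbie gap of 0.43 log2 is larger than either stimulus response of Nfkbie after solvent, 0.32 log2 with CpG and 0.25 with TNF. The signed CpG change was higher in experiment 1 for 6 of the 9 genes, as for 36.1% of all tested genes. With CpG 60.6% of all tested genes lay below 0, and a deeper fall counts as lower here. That share is therefore not a measure of the size of response. Over all tested genes the response had an SD of 0.55 log2 in experiment 1 against 0.27 in experiment 2.

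Upstream of the dimers, 18 of 21 listed kinases and adaptors were tested, and 9 rose and 0 fell with CpG, with a median of 0.31 log2. Among all tested genes 6.19% rose and 13.7% fell, with a median of -0.05. The 9 that rose include Ikbke, a kinase related to those that mark IkB proteins, at 1.15 log2 (limma adjusted p = 0.0036). They also include Map3k8, a kinase upstream of MAP kinases that p105 holds inactive, at 0.97 (limma adjusted p = 0.0296), and Birc2 at 0.86 (0.0023). With TNF 1 rose, Birc2, by 0.59 log2 (0.0242), against 1.14% of all tested genes. Without the block 1 rose with CpG and 0 with TNF, against 1.07% and 0.0822% of all tested genes. Ikbkb and Ikbkg, which encode the catalytic and the scaffold subunit of the IkB kinase, changed by 0.24 and 0.02 log2 with CpG and did not pass (0.115 and 0.924).

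Of 18 listed feedback and other regulators, 17 were tested. With CpG 7 rose and 1 fell, with a median of 0.19 log2. Of all tested genes 6.19% rose and 13.7% fell, with a median of -0.05. Traf1, a signalling adaptor, rose by 1.32 log2 (limma adjusted p = 0.0023), Peli1, a ubiquitin ligase, by 0.90 (0.0019) and Zc3h12a, an RNase that cuts cytokine messages, by 0.83 (0.0015). Pdlim2, which promotes the breakdown of nuclear p65, fell by 0.52 log2 (0.0195). With TNF Traf1 (0.96, 0.0200) and Peli1 (0.47, 0.0471) rose and none fell, where 1.14% of all tested genes rose and 1.97% fell. Without the block 4 rose with CpG and 0 with TNF, against 1.07% and 0.0822% of all tested genes.

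Of 29 listed target genes, 28 were tested, and with CpG 17 rose and 1 fell, with a median of 1.17 log2. Among all tested genes 6.19% rose and 13.7% fell, with a median of -0.05. Il12b, the shared chain of interleukin-12 and interleukin-23, rose by 3.71 log2 (limma adjusted p = 0.0056), Il6 by 2.82 (0.0266) and Cd40, a costimulatory receptor, by 2.33 (0.0038). Plau, which encodes urokinase, fell by 0.57 log2 (0.0087). With TNF 3 rose, Marcksl1 (0.90, 0.0397), Ccl22 (0.85, 0.0419) and Icam1 (0.57, 0.0373), and Plau fell by 0.48 log2 (0.0450). Of all tested genes 1.14% rose and 1.97% fell with TNF. Without the block 5 target genes rose with CpG and 0 with TNF, against 1.07% and 0.0822% of all tested genes. The solvent arrays are shared by these comparisons too.

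The labelled cell type was checked against markers. All 12 dendritic cell markers tested lay above the overall median of 7.52 log2 on every array, and so did 9 of 9 macrophage and 9 of 9 granulocyte markers, whereas 2 of 7 lymphocyte and plasmacytoid and 0 of 5 erythroid and stromal markers did. That bar is low, since 12172 of the 18193 genes lay above it on at least 2 arrays. Cd3e and Siglech passed it with mean levels at percentiles 43.2 and 43.4. The lowest dendritic cell, macrophage and granulocyte markers were Cd209a, Mertk and Elane, at percentiles 54.2, 55.5 and 58.2. The highest were H2-Aa, Csf1r and S100a9, at 99.9, 99.6 and 99.9. The cultures thus gave a strong signal for some listed markers of each of these cell types and a mid-range signal for others. The mean of the dendritic cell list lay between 11.52 and 11.70 in solvent, 11.13 and 11.34 with CpG and 11.18 and 11.36 with TNF, and that of the macrophage list between 11.89 and 12.09, 11.61 and 11.67, and 11.52 and 11.62. The granulocyte list lay between 11.73 and 11.95 in solvent, 11.80 and 11.97 with CpG and 11.73 and 12.01 with TNF. Of the dendritic cell list, 3 of 12 fell with CpG (Clec10a, Mgl2 and Cd209a) and 2 with TNF (Clec10a and Mgl2). The medians were -0.07 and -0.14 log2 against -0.05 for all tested genes in both. Among all tested genes 13.7% fell with CpG and 1.97% with TNF. Of the macrophage list, 4 of 9 fell with CpG (C1qa, C1qc, Csf1r and Cd68) and 0 with TNF (3 had a limma unadjusted p under 0.05), with medians of -0.32 and -0.34. Of the granulocyte list, 0 of 9 passed with either, and 0 had an unadjusted p under 0.05. Among all tested genes 37.4% had a limma unadjusted p under 0.05 with CpG and 20.5% with TNF. The part of the marker shifts in the changes of the 9 NF-kB and IkB genes was not tested.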

How the data were processed

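Expression was measured on 14 Affymetrix mouse arrays. The deposited values are log2 RMA summaries per probe set, made by the authors in R 3.0.1, per the submitters' processing notes; RMA settings and a genome build are not stated in the labels. Of 45101 probe sets, 34945 had 1 gene in the array annotation and 932 several. Genes above the overall median of 7.52 log2 on at least 2 arrays were tested (12172) with limma 3.58.1 in R 4.3.3: 7 groups, a block for the experiment, 6 residual degrees of freedom, 2-sided tests, Benjamini-Hochberg adjustment within each of 12 comparisons.

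Replicate numbers were read as experiments 1 and 2, since the design text names 2 independent experiments. Over the 21 pairs of groups the differences between replicates correlated at 0.455 to 0.935. The number of arrays limits precision: the median half-width of the 95% interval was 0.20 log2. Replicate arrays of a group correlated at 0.961 to 0.985. No array was left out.

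Promoters were searched for the kB consensus of 10 bases on both strands. The fit was tested on simulated data. Alternatives were no block, no filter, the mean of probe sets, cyclic loess, reference-gene scaling, array weights, leaving out each array and, added after the data were seen, other probe sets. Named genes were the listed members, up to 3 called genes of each pathway list by size of change (otherwise the 2 largest as values), and for each member the 2 most correlated genes. Ikbkb and Ikbkg were named after their values were seen. Pdlim2 and Plau were named outside that rule, as the called genes of their lists that fell. The members and lists were chosen with earlier results of these data known.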

Additional observations from a re-analysis of the deposited data

Results flagged for a closer look

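In 7 genes, every array pair moved down with CA074Me alone and up with CA074Me under TNF, in both experiments. This held for 10.9% of all tested genes. The difference between both effects, in log2, was 0.406 for Nfkb2, 0.382 for Relb, 0.359 for Bcl3, 0.266 for Nfkbie, 0.252 for Nfkbib, 0.200 for Rela and 0.182 for Nfkbia. The fitted interactions had limma adjusted p-values of 1.00, so none passed. The opposite signs rest on 2 pairs of arrays for each effect, and changes with CA074Me alone came as close to 0 as -0.02 log2 in 1 experiment (Nfkbib).

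Nfkbie was above solvent with CLIK148 alone and below it under CpG in both experiments, with an interaction of -0.130 log2 (limma adjusted p = 1.00). The reverse-sign pattern held for 5.37% of all tested genes.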

How the results depend on the processing

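The fit without the replicate block gave 1 of 9 genes changed with TNF, 0 for CpG against TNF, 3 for CpG after CLIK148 and 3 for TNF after CA074Me, where the fit with it gave 3, 1, 7 and 8. The mean of probe sets gave 0 for CpG against TNF, and array weights gave 0 there and 6 with TNF. With 1 array left out the count ranged from 4 to 7 for CpG, 0 to 1 for TNF, 0 to 3 for CpG against TNF, 2 to 6 for CpG after CLIK148 and 4 to 7 for TNF after CA074Me; fewer arrays enter these fits. Cyclic loess added Rela with CpG. Among all tested genes, those changed without the replicate block were 234 with CpG, 14 with TNF, 1 for CpG against TNF, 99 for CpG after CLIK148 and 159 for TNF after CA074Me, against 2420, 379, 53, 2077 and 1355 with it. Array weights gave 777, 1935, 2, 2404 and 2651, reference-gene scaling 218 with TNF and 25 for CpG against TNF, and the mean of probe sets 21 for the last. With 1 array left out these counts ran from 313 to 4774, 0 to 198, 1 to 1211, 133 to 1733 and 235 to 830. For CA074Me under TNF, 1 gene changed, 4 with array weights and 0 without the block or with any array left out. No member or other gene changed in the remaining inhibitor comparisons and interactions under any of these settings. On 1 of the other Nfkbia probe sets the change with TNF after CA074Me, which had passed, turned to -0.0547 log2 (adjusted p = 0.874). The other signs that turned were of changes that had not passed. Nfkbib in CLIK148 against CA074Me became 0.000222 log2 with the mean of probe sets. Nfkbiz in CLIK148 under CpG became 0.00975 with cyclic loess and 0.00951 with reference-gene scaling, and the CLIK148 by CpG interaction of Nfkbib 0.0215 and 0.0274. With 1 array left out, ranges that crossed 0 were -0.0696 to 0.201 (Nfkbie, CpG against TNF), -0.327 to 0.0505 (Nfkbib, CLIK148 alone), -0.0330 to 0.191 (Nfkbie, CLIK148 alone), -0.306 to 0.0292 (Rel, CA074Me alone), -0.130 to 0.0316 (Nfkbib, CA074Me alone), -0.365 to 0.0202 (Nfkbie, CA074Me alone), -0.28 to 0.10 (Nfkbib, CLIK148 against CA074Me), -0.44 to 0.37 (Nfkbiz, CLIK148 under CpG), -0.13 to 0.33 (Rel, CA074Me under TNF), -0.11 to 0.36 (Nfkbiz, CA074Me under TNF), -0.0116 to 0.158 (Bcl3, CA074Me under TNF), -0.22 to 0.19 (Nfkbib, CLIK148 by CpG) and -0.309 to 0.0490 (Nfkbie, CLIK148 by CpG). The cause of these shifts was not tested beyond the fewer arrays.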
